A study of Rattus norvegicus with 4 samples.

Results

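The mucosa of rat middle ears colonized by methicillin-resistant Staphylococcus aureus (MRSA) alone was set against the mucosa of ears colonized by Pseudomonas aeruginosa (PA) alone. Every annotated feature of at least 300 bp whose mean over the 4 libraries of the series was at least 1 FPKM entered the comparison, which kept 15786 of the 27832 features in the expression table. FPKM counts sequenced fragments relative to the length of the transcript and the depth of the library. Of the 15786 features, 14307 carry a gene symbol and 1479 do not, and 662 of the 13218 different symbols are carried by more than 1 feature. A difference is given as the log2 ratio of MRSA to PA after 0.1 FPKM was added to both, so that a positive value means more transcript in MRSA.

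All rats were Sprague-Dawley (SD) animals, injected through the eardrum of the right ear, and the lining of the bulla was scraped for RNA 1 week later. The MRSA group was given a resistant strain of the Culture Collection of Antimicrobial Resistant Microbes and the PA group a strain of the American Type Culture Collection, each as 50 µL of a suspension in TSB, a bacterial growth medium, with 10000000 CFU. Another group received a mixed culture (MRSA + PA) and the control group the medium alone, which has no bacteria. Each condition is represented by 1 library, and whether that library holds 1 rat or several is not stated, so the comparison gives sizes of difference without a replicate error and without a test. The ages of the rats and the number of fragments behind a single value are unknown here, and the study gives its total reads only as a range over all samples. In what follows MRSA, PA and MRSA + PA stand for these libraries, and values given "with both" are those of MRSA + PA. The media library was used for the filter on low levels and as background for list sums and for features too short to be compared.

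The middle ear is lined by a thin airway-type epithelium with ciliated, secretory and basal cells, which borders on bone and, at the eardrum and ear canal, on keratinized skin. In otitis media this lining thickens and takes in neutrophils, macrophages and lymphocytes. Keratinocytes that leave the basal layer switch to KRT1 and KRT10, form the cornified envelope from small proline-rich proteins and loricrin, and are shed by proteases of the kallikrein family. Natural killer (NK) cells and other cytotoxic lymphocytes kill target cells with perforin and granzymes, while T helper 2 responses recruit eosinophils through eotaxin.

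Defining markers of the mucosa were present in both libraries. FOXJ1, the master regulator of motile cilia, had 34. FPKM in MRSA and 22. in PA. BPIFA1, a secreted airway defence protein, had 11118 FPKM in MRSA and 7472 in PA, and KRT5, the basal cell keratin, 95.4 FPKM in MRSA and 393 in PA. Of the 2 remaining cornified layer markers, involucrin (IVL) was listed at 0 in MRSA and at 0.644 FPKM in PA, below the filter, and loricrin was not analysed here.

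The 2 libraries were alike for most features. The median log2 difference over all 15786 features was 0.00, and the middle 50% lay between -0.21 and 0.23. Across the features the Pearson correlation of log2 levels was 0.889, a description over genes, which are not independent replicates. A difference of at least 2-fold was found for 1295 features (8.2%), of which 769 (4.87%) were higher in MRSA and 526 (3.33%) higher in PA. At 4-fold or more there were 537 (3.4%), 332 (2.1%) in MRSA and 205 (1.3%) in PA. With 1 feature per symbol, 5.98% of 13218 genes were at least 2-fold apart, 471 (3.56%) higher in MRSA and 319 (2.41%) in PA, and 2.65% were at least 4-fold apart. These shares, and a median of 0.00, are the background against which each gene list below is read.

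The share of features at least 2-fold apart was 15.7% at mean levels of 1 to 5 FPKM, 5.71% at 5 to 20, 3.8% at 20 to 100 and 7.06% at 100 or more. Of the 1295 features, 56 were listed at 0 in MRSA and 58 at 0 in PA, and no fold is given for these. Just inside the 2-fold line lay CST7, a cystatin of leukocytes, with 64.3 FPKM in MRSA and 32.1 in PA, and just outside it HBB, a haemoglobin chain, with 814 FPKM in MRSA and 409 in PA. On the side of PA, MMP3, a matrix protease, lay just inside with 6.51 FPKM in MRSA and 13.3 in PA, and SFTPD, a lung collectin, just outside with 29.7 FPKM in MRSA and 59. in PA. When the PA values were multiplied by 1.084 to give equal FPKM sums, differences moved by as much as -0.12, and by less for features low in PA. Of 1290 features then at least 2-fold apart 51.1% were higher in MRSA, against 59.4% without rescaling.

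**Figure D1:**
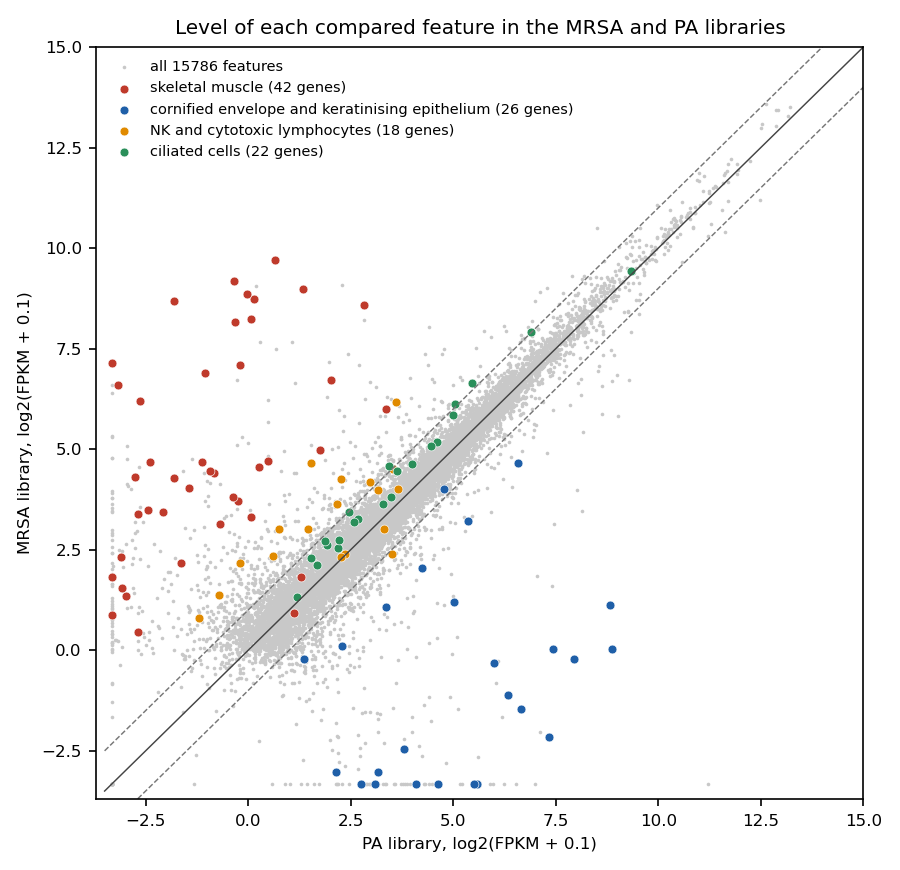
Level of each compared feature in PA (horizontal axis) and in MRSA (vertical axis), both as log2(FPKM + 0.1), with equality as the solid line and 2-fold differences as dashed lines. The skeletal muscle genes (red) lie far above the line and the cornified envelope genes (blue) far below it, while the ciliated cell genes (green) stay close to it, between 0.10 and 1.17.

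The genes furthest toward PA were those of a cornifying, skin-type epithelium. Of the 46 listed genes of the cornified envelope and keratinizing epithelium 26 passed the filter, 25 of these were at least 2-fold higher in PA and none was higher in MRSA, against 2.41% of all genes. In 18 of the 26 the mean over the other 3 libraries was under 1 FPKM, so that they passed the filter only through PA, where they are high, and the count and the median of the list are given as a description. Their median log2 difference was -6.35, and 7 of the 26 were listed at 0 in MRSA. Their summed level was 2204 FPKM in PA, 66.7 in MRSA, 107 in MRSA + PA and 61.8 in the media library. PA was thus the only one of the 4 libraries in which the list stood high. Of the 20 genes furthest toward PA by the naming rule 12 were on this list.

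SPRR1A, a small proline-rich precursor of the envelope, had 0.125 FPKM with MRSA, 161 with PA and 0.204 with both, a log2 difference of -9.49. KRT1 and KRT10 pair to form the filaments of keratinocytes above the basal layer. KRT1 had 0.917 FPKM with MRSA, 465 with PA and 0.0308 with both (-8.84), and KRT10 had 2.1 FPKM with MRSA, 456 with PA and 2.1 with both (-7.7). KRTDAP, a secreted protein of differentiating keratinocytes, was listed at 0 in MRSA and in MRSA + PA but had 45.3 FPKM in PA. CNFN, cornifelin, was likewise at 0 in both and at 47.7 FPKM in PA. In none of these genes did the levels of MRSA and MRSA + PA come near that of PA.

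SBSN (suprabasin) and DMKN (dermokine) are proteins secreted by the upper layers of the epidermis. SBSN had 0.922 FPKM with MRSA, 172 with PA and 0.489 with both (-7.39), and DMKN 0.263 FPKM with MRSA, 100.4 with PA and 0.0752 with both (-8.12). SPINK7, a serine protease inhibitor of squamous epithelium, had 0.766 FPKM with MRSA, 248 with PA and 0.108 with both (-8.16). ASPRV1, the protease that processes profilaggrin, had 0.362 FPKM with MRSA, 81.3 with PA and 0 with both (-7.46), and FLG itself, filaggrin, had 0.0232 FPKM with MRSA, 8.84 with PA and 0.0237 with both (-6.18). The desmosome of these layers was represented by CDSN, corneodesmosin, with 2.21 FPKM with MRSA, 32.6 with PA and 2.14 with both (-3.82), by DSC1, a desmocollin at 0 in MRSA and 16.9 FPKM in PA, and by PKP1, a plakophilin, with 9.17 FPKM with MRSA, 41.3 with PA and 15.5 with both (-2.16). The differences were smaller for some other genes of the list. TGM1, the transglutaminase that crosslinks the envelope, had 0.979 FPKM with MRSA, 4.79 with PA and 1.61 with both (-2.18), KRT17 had 25.1 FPKM with MRSA, 95.2 with PA and 65.3 with both (-1.92), and CALML3, a calmodulin-like protein, was less than 2-fold apart with 16.1 FPKM with MRSA, 27.1 with PA and 13.1 with both (-0.75).

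The promoters of 20 of the 25 genes at least 2-fold higher in PA were found by symbol in the RefSeq promoter table (build GRCr8, 250 bases before to 50 after the start of each gene). Of 3 motifs searched, an AP-1 motif, TGANTCA read on both strands, was in 5 of the 20 (25%), against 2012 of 27457 promoters in the table (7.33%) and 496 of the 9650 promoters of compared genes (5.14%). AP-1 is the FOS and JUN family of factors, which act in keratinocyte differentiation. The sequences of Sprr1a (chr2:180752576-180752875, minus strand) and Krtdap (chr1:95165612-95165911, plus strand) are shown because these are the genes with the largest differences whose windows hold it, with the motif in capitals. The matches are a description of these letters and were not tested as binding sites.
Sprr1a: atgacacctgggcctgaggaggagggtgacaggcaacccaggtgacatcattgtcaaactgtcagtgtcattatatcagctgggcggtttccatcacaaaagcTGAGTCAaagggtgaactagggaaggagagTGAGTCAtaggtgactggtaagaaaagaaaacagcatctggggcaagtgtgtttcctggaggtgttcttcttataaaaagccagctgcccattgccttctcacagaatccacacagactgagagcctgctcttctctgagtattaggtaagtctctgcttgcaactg
Krtdap: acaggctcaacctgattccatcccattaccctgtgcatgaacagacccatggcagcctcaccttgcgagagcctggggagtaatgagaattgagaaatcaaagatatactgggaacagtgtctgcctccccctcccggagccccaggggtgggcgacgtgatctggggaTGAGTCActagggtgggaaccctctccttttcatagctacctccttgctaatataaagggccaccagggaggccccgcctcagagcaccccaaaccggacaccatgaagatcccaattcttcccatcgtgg
In Sprr1a the 2 motifs begin 147 and 117 bases before the start of the gene, and in Krtdap the motif begins 81 bases before it.

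Other epithelial barrier genes were picked after their values were seen, so that their direction is no further support. Of 28 kallikrein features 6 passed the filter, all of them only through PA. Each was over 4-fold higher in PA, against 0.961% of all genes, with a median log2 difference of -6.97, a direction that passing the filter only through PA favours. KLK5 and KLK7 are the proteases that cut corneodesmosomes. KLK5 was listed at 0 in MRSA and had 24.7 FPKM in PA, KLK7 had 0.705 FPKM with MRSA, 63.3 with PA and 0.857 with both (-6.3), and KLK6 had 0.219 FPKM in MRSA and 72.9 in PA and was at 0 in MRSA + PA. DSG1A, a desmoglein, had 0.264 FPKM with MRSA, 34.7 with PA and 0.358 with both (-6.58). LGALS7, the galectin of stratified epithelia, had 11. FPKM with MRSA, 282 with PA and 3.68 with both (-4.67), and CSTA, cystatin A of the envelope, had 0.47 FPKM in MRSA and 66. in PA and was at 0 in MRSA + PA. AQP3, a water and glycerol channel of keratinocytes, had 10.8 FPKM with MRSA, 60.8 with PA and 5.94 with both (-2.49), and GJB2, a gap junction protein, 4.01 FPKM with MRSA, 25.3 with PA and 3.74 with both (-2.62).

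Genes of lipid barrier and retinoid metabolism were split. Of the 28 listed genes 21 passed the filter and 8 of these were at least 2-fold higher in PA and none in MRSA, with a median of -0.42. Of the 21, 2 passed the filter only through PA, which favours that direction. ELOVL4, which makes the very long fatty acids of skin ceramides, had 0.785 FPKM with MRSA, 16.9 with PA and 1.05 with both (-4.26). CERS3, the ceramide synthase of the epidermis, had 1.62 FPKM with MRSA, 6.22 with PA and 2.17 with both (-1.88). ALDH1A3, which makes retinoic acid, had 5.11 FPKM with MRSA, 23.1 with PA and 11.1 with both (-2.15), and STRA6, the retinol transporter, 5.05 FPKM with MRSA, 18.3 with PA and 11.1 with both (-1.83). ALDH1A1, in contrast, had 66.8 FPKM in MRSA and 89.6 in PA (-0.42).

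The keratins of the basal layer differed less than those above it. Of 9 stratified and simple epithelial keratins, 5 were at least 2-fold higher in PA and none in MRSA, with a median of -1.18. KRT5 and KRT14 form the filaments of basal cells. KRT5 had 95.4 FPKM with MRSA, 393 with PA and 175 with both (-2.04), and KRT14 161 FPKM with MRSA, 483 with PA and 256 with both (-1.59). KRT15, another basal keratin, had 133 FPKM with MRSA, 378 with PA and 210.0 with both (-1.5). Among the simple epithelial keratins, KRT8, KRT18 and KRT19 were nearly level between the libraries, at -0.20, -0.12 and 0.00. KRT7, another of them, was higher in PA, with 23.4 FPKM with MRSA, 60.4 with PA and 45.4 with both (-1.36). In all of KRT5, KRT14 and KRT15 the MRSA + PA level lay between those of the single species.

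Of 14 genes of the basal epithelium and hemidesmosome, 4 were at least 2-fold higher in PA and none in MRSA, and all 14 had differences below 0 (13 of them after median-of-ratios scaling), the one nearest to 0 being BCAM with 126 FPKM in MRSA and 126 in PA. The median was -0.73. COL17A1, the collagen that anchors basal cells, had 9.83 FPKM with MRSA, 38.1 with PA and 16.2 with both (-1.94). LAMA3, a chain of laminin 332, had 7.85 FPKM with MRSA, 21.8 with PA and 13.4 with both (-1.46), and TP63, the transcription factor of stratified epithelia, 14.1 FPKM with MRSA, 28.8 with PA and 16.5 with both (-1.02, but -0.98 with 1 FPKM added).

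Ciliated cell genes went the other way. All 22 that passed the filter had differences above 0 (21 of them when the FPKM sums of the libraries were set equal), from 0.10 to 1.17 with a median of 0.63, and 4 reached 2-fold. SNTN, a protein of the ciliary tip, had 99.2 FPKM with MRSA, 44. with PA and 43.7 with both (1.17), and PIFO, which acts in ciliary disassembly, 23.8 FPKM with MRSA, 10.7 with PA and 10.4 with both (1.15). FOXJ1 had 34. FPKM with MRSA, 22. with PA and 16.6 with both (0.63), and DNAH5, an outer dynein arm heavy chain, 4.25 FPKM with MRSA, 3.11 with PA and 2.08 with both (0.44). For 21 of the 22 genes MRSA + PA was nearer to PA. TPPP3 and FAM183B reached 2-fold as well, at 1.01 and 1.08, and both were below it when the libraries were rescaled to equal sums.

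Secretory and antimicrobial genes were higher in PA for a part of each list. Of 19 mucosal secretory genes, 8 were at least 2-fold higher in PA and 1 in MRSA, with a median of -0.93. The 1 in MRSA was LYZ2, a lysozyme (7.0), whose value is uncertain because LYZ1 is a near-identical copy. MUC5B, a gel-forming mucin, had 16.5 FPKM with MRSA, 86.1 with PA and 5.4 with both (-2.38), and MUC4, a membrane mucin, 5.19 FPKM with MRSA, 18.3 with PA and 3.82 with both (-1.8). FCGBP, a mucus protein that binds the Fc part of IgG, had 41.5 FPKM with MRSA, 105 with PA and 44.6 with both (-1.34). SCGB1A1, the club cell secretoglobin, had 807 FPKM with MRSA, 1537 with PA and 1000.0 with both (-0.93). BPIFA1, the most abundant member, was higher in MRSA, with 11118 FPKM with MRSA, 7472 with PA and 13362 with both (0.57). TFF3, a trefoil peptide of mucus, had 0.887 FPKM with MRSA, 6.87 with PA and 0.23 with both (-2.82). It was the 1 gene of the 19 that passed the filter only through PA, which favours that direction. Of the 8 mucosal genes at least 2-fold higher in PA, 6 were lower in MRSA + PA than in either single species, MUC5B, MUC4 and TFF3 among them.

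Beta-defensins kill bacteria and attract leukocytes. DEFB4 was listed at 0 in MRSA and in MRSA + PA but had 127 FPKM in PA, the largest difference of the list. DEFB14 was at 0 in the same 2 libraries and at 59.6 FPKM in PA. These were the 2 antimicrobial genes of the 14 that passed the filter only through PA, which favours that direction. They are 2 of the 3 genes of the list at least 2-fold higher in PA. DEFB1, the constitutively made defensin, had 46.7 FPKM with MRSA, 65.8 with PA and 61.2 with both (-0.49). LCN2, lipocalin 2, which binds bacterial siderophores, had 115 FPKM with MRSA, 513 with PA and 72.7 with both (-2.15). SLPI, a secretory protease inhibitor, was higher in MRSA, with 1041 FPKM with MRSA, 526 with PA and 963 with both (0.99), just under 2-fold. S100A8 and S100A9, the calprotectin pair, were nearly level at -0.05 and -0.11. The other antimicrobial genes of the 14 lay within 2-fold of equality. The keratinized epithelium list stood high in the same library as DEFB4, DEFB14 and LCN2, and its part in these levels was not tested.

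**Figure D2:**
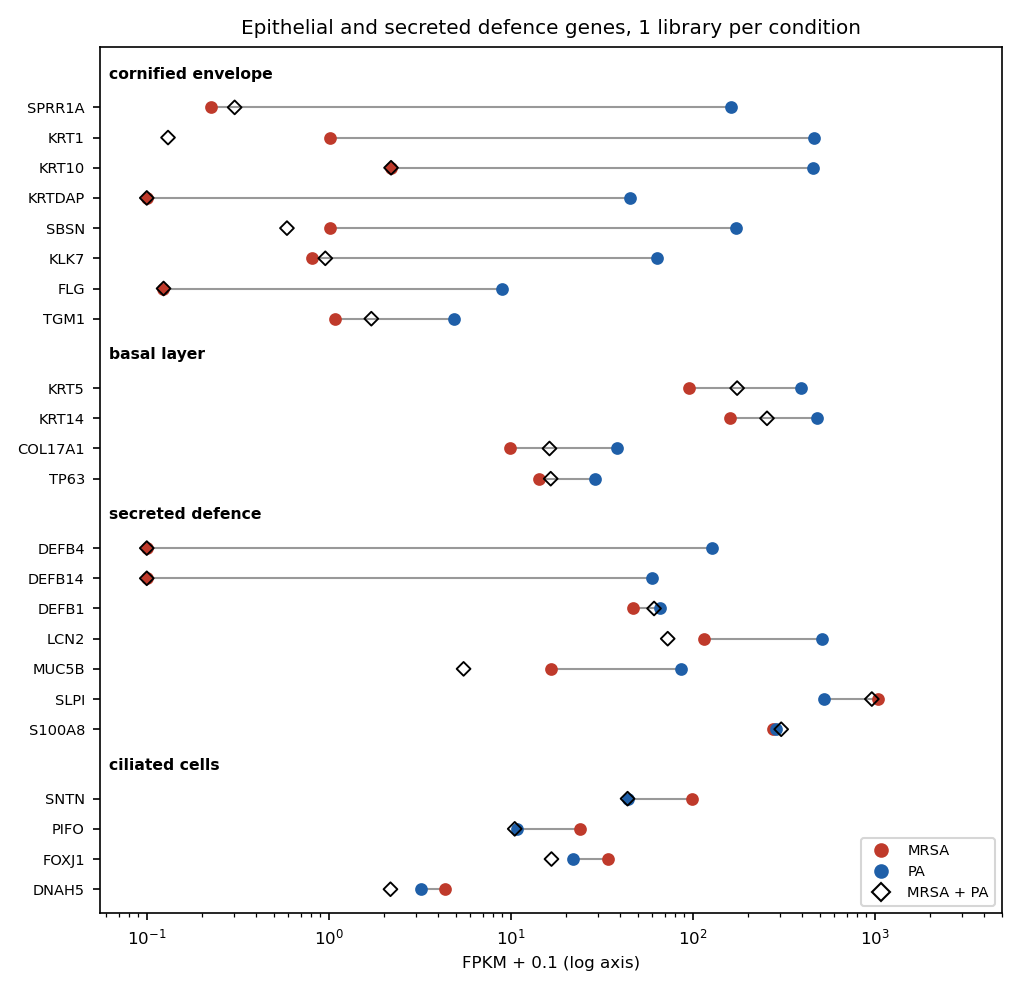
FPKM + 0.1 on a log axis for 23 epithelial and secreted defence genes in MRSA (red), PA (blue) and MRSA + PA (open diamonds), with a line joining MRSA and PA. The diamonds of the cornified envelope genes and of DEFB4 and DEFB14 lie with MRSA at the far left, those of KRT5 and KRT14 between the single species, and those of the ciliated cell genes with or below PA.

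Of the leukocyte gene lists, that of NK cells and cytotoxic lymphocytes had the median furthest toward MRSA. Of the 32 listed genes 18 passed the filter and 11 of these were at least 2-fold higher in MRSA and 1 in PA, against 3.56% and 2.41% of all genes, and 16 of the 18 had differences above 0, or 14 with equal FPKM sums. Of the 18, 1 passed the filter only through MRSA. The median was 1.51. GZMM, a granzyme, had 25. FPKM with MRSA, 2.77 with PA and 26.3 with both (3.13), and GZMK, another, 4.42 FPKM with MRSA, 0.771 with PA and 7.14 with both (2.38). PRF1, perforin, had 7.93 FPKM with MRSA, 2.66 with PA and 6.84 with both (1.54). NKG7, a protein of cytotoxic granules, had 18.9 FPKM with MRSA, 4.68 with PA and 22.8 with both (1.99). In this tissue RNA, more cells of a type and more RNA per cell cannot be told apart.

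CCL5, a chemokine that T cells and NK cells secrete, had 71.9 FPKM with MRSA, 12. with PA and 92.5 with both (2.57), and XCL1, another, 5.0 FPKM with MRSA, 1.43 with PA and 9.01 with both (1.74). TBX21 and EOMES are the T-box factors that drive the cytotoxic programme. TBX21 had 1.64 FPKM with MRSA, 0.334 with PA and 1.71 with both (2.01), and EOMES 2.5 FPKM with MRSA, 0.515 with PA and 2.46 with both (2.08). The activating receptors NCR1 and NCR3 were level between the libraries, at 0.07 and 0.03, and SH2D1B, an adaptor of NK cells, was higher in PA, with 5.11 FPKM with MRSA, 11.2 with PA and 11.1 with both (-1.12). MRSA + PA was nearer to MRSA for 17 of the 18 genes.

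The killer cell lectin-like receptors, a family grouped after its values were seen, held 15 features above the filter, each with a difference above 0, and 10 of these were at least 2-fold higher in MRSA. KLRD1, the partner chain of the NKG2 receptors, had 12.3 FPKM with MRSA, 4.36 with PA and 14.4 with both (1.47), and KLRB1F 8.04 FPKM with MRSA, 1.6 with PA and 10.3 with both (2.26). Several of these genes are near-identical copies, so that the split of fragments among them is uncertain.

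T cell genes as a whole did not separate the libraries. Of 34 genes 2 were at least 2-fold higher in MRSA and none in PA, and the median was 0.00, which was -0.11 after rescaling to equal sums. CD3E, a chain of the T cell receptor complex, had 29.9 FPKM with MRSA, 27.5 with PA and 24.5 with both (0.12), and CD4, the co-receptor of helper T cells, 149 FPKM with MRSA, 177 with PA and 124 with both (-0.24). CD8A, the co-receptor of cytotoxic T cells, had 27. FPKM with MRSA, 11.1 with PA and 20.3 with both (1.27), and CD27, a co-stimulatory receptor, 3.32 FPKM with MRSA, 1.52 with PA and 2.98 with both (1.08, but 0.78 with 1 FPKM added and 0.97 with equal sums). The receptor constant regions, also grouped after their values were seen, were split by type. TRDC, the delta chain constant region, had 50.2 FPKM with MRSA, 6.41 with PA and 42.3 with both (2.95), and the feature named TCC2_MOUSE, a gamma chain constant region, 78.6 FPKM with MRSA, 10.3 with PA and 51.8 with both (2.92). The 2 beta chain constant regions were at 26.8 and 40.7 FPKM in MRSA and at 27.4 and 57.3 FPKM in PA. Gamma delta T cells, which use the first pair, are common in epithelia.

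Neutrophil genes fell into separate sets. Of 22 genes 4 were at least 2-fold higher in PA and 1 in MRSA, with a median of 0.19. CXCR2, the receptor for the neutrophil-attracting chemokines, had 4.35 FPKM with MRSA, 15.2 with PA and 5.89 with both (-1.78), CSF3R, the G-CSF receptor, 9.04 FPKM with MRSA, 30.4 with PA and 10.1 with both (-1.74), and IL1R2, the decoy receptor of interleukin 1, 6.79 FPKM with MRSA, 21.8 with PA and 8.71 with both (-1.67). Genes of the primary granules lay on the other side of 0. PRTN3, proteinase 3, had 3.38 FPKM with MRSA, 1.61 with PA and 2.74 with both (1.03), CTSG, cathepsin G, 4.59 FPKM with MRSA, 2.25 with PA and 3.1 with both (0.99), and MPO, myeloperoxidase, 2.61 FPKM with MRSA, 1.52 with PA and 2.75 with both (0.75). All of the last 3 had levels under 5 FPKM.

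Of 28 macrophage and monocyte genes 3 were at least 2-fold higher in MRSA and none in PA, and the median was 0.25. The furthest of the 3 was LYZ2, a lysozyme (7.0), whose value is uncertain because LYZ1 is a near-identical copy. MMP12, the macrophage elastase, had 246 FPKM with MRSA, 77.6 with PA and 85.1 with both (1.66). The paper's real-time PCR, given as fold change against media, had MMP12 in the opposite order, higher in PA than in MRSA. FABP4, a fatty acid binding protein of macrophages and fat cells, had 264 FPKM with MRSA, 113 with PA and 106 with both (1.22). APOE, the lipid carrier, had 12184 FPKM with MRSA, 6352 with PA and 8170.2 with both (0.94), and GPNMB, a lysosomal glycoprotein of lipid-laden macrophages, 1187 FPKM with MRSA, 743 with PA and 648 with both (0.68). CSF1R, the receptor that macrophages need to survive, was nearly level with 139 FPKM in MRSA and 149 in PA (-0.10), and CD163, a scavenger receptor, lay the other way with 6.47 FPKM in MRSA and 12.7 in PA (-0.97).

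The T helper 2, mast cell and eosinophil list was split. Of 24 genes 5 were at least 2-fold higher in MRSA and 1 in PA, with a median of 0.25. CCL11, eotaxin, had 5.46 FPKM with MRSA, 0.127 with PA and 0.0909 with both (4.62), the largest difference of the list. PRG2, the eosinophil major basic protein, had 13. FPKM with MRSA, 1.77 with PA and 7.38 with both (2.81), and EPX, eosinophil peroxidase, 1.58 FPKM with MRSA, 0.43 with PA and 0.867 with both (1.66, but 0.85 with 1 FPKM added). EPX passed the filter only through MRSA, which favours that direction. SIGLEC5, a receptor of myeloid cells, was the member higher in PA, just past 2-fold, with 4.65 FPKM with MRSA, 9.46 with PA and 4.41 with both (-1.01). RETNLA, in mice a product of alternatively activated macrophages, had 36.4 FPKM with MRSA, 5.51 with PA and 14.7 with both (2.7). Of the mast cell genes, CMA1, a chymase, was just past 2-fold with 11.3 FPKM in MRSA and 5.56 in PA, while CPA3 and MS4A2 were less than 2-fold apart, at 0.39 and 0.73. KIT, the stem cell factor receptor, lay toward PA at -0.70, as did GATA3, the T helper 2 factor, at -0.73.

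The T helper 17 list, whose cytokines act on epithelium and neutrophils, leaned toward PA, with a median of -0.38 over 17 genes, 2 at least 2-fold higher in PA and 1 in MRSA. Of the 17, 2 passed the filter only through PA, IL36G among them, and 1, IL12B, only through MRSA, which favours those directions. IL36G, a cytokine of keratinocytes, was listed at 0 in MRSA and in MRSA + PA but had 14.7 FPKM in PA. CXCL5, a chemokine for neutrophils, had 39.3 FPKM with MRSA, 123 with PA and 24.8 with both (-1.64), and CCL20, the ligand of CCR6, 59.7 FPKM with MRSA, 104 with PA and 68. with both (-0.80). IL17A itself was level, with 8.49 FPKM in MRSA and 8.58 in PA (-0.02). IL12B, the chain that IL-12 and IL-23 share, was higher in MRSA at low level, with 2.09 FPKM with MRSA, 0.524 with PA and 1.3 with both (1.81).

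Among 31 chemokines 6 were at least 2-fold higher in MRSA and 1, CXCL5, in PA, with a median of 0.45. Of the 31, 1 passed the filter only through PA. Besides CCL5, XCL1 and CCL11, the 6 were CXCL9, an interferon gamma target that attracts T cells, with 17.9 FPKM with MRSA, 6.52 with PA and 29.3 with both (1.45), CCL9, a monocyte chemokine, with 134 FPKM with MRSA, 50.3 with PA and 69.9 with both (1.42), and PF4, a platelet and macrophage chemokine, with 413 FPKM with MRSA, 128 with PA and 137 with both (1.69). The other interferon response genes were mostly level. Of 39 genes 2 were at least 2-fold higher in MRSA and 1 in PA, with a median of 0.07 that became -0.04 after rescaling to equal sums. Of the 39, 1 passed the filter only through MRSA. ISG15, a ubiquitin-like interferon product, had 13.6 FPKM with MRSA, 31.7 with PA and 14. with both (-1.21).

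Of 25 inflammatory cytokines and their receptors 3 were at least 2-fold higher in PA and 1 in MRSA, with a median of -0.14. EREG, an EGF receptor ligand, had 0.62 FPKM with MRSA, 5.19 with PA and 0.542 with both (-2.88), and IL1A 1.53 FPKM with MRSA, 3.39 with PA and 0.783 with both (-1.1, but -0.79 with 1 FPKM added). Both were among 3 of the 25 that passed the filter only through PA, and IL12B was the 1 that passed only through MRSA. Passing in this way favours these directions, and the counts are given as a description. IL1B and TNF, the main early inflammatory cytokines, were less than 2-fold apart, at -0.19 and -0.20. Of 28 pattern recognition receptors 1 was at least 2-fold apart, CLEC6A (dectin-2), with 0.18 FPKM with MRSA, 2.13 with PA and 1.46 with both (-2.99). CLEC6A passed the filter only through PA, which favours that direction. TLR2, the receptor for bacterial lipoproteins, had 40.3 FPKM in MRSA and 33. in PA (0.29), TLR4, for lipopolysaccharide, 10.4 FPKM in MRSA and 12. in PA (-0.21), and TLR5, for flagellin, 3.94 FPKM in MRSA and 5.73 in PA (-0.53). Each of these 3 receptors was less than 2-fold apart.

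Antigen presentation and antibody genes were higher in MRSA for single members. Of 19 genes of MHC class II and antigen presentation 17 had differences above 0 (15 with equal FPKM sums) with a median of 0.48, and RT1-BB alone reached 2-fold, with 604 FPKM with MRSA, 279.9 with PA and 678 with both (1.11, 0.99 after rescaling to equal sums). CD74, the invariant chain, had 3539 FPKM with MRSA, 2233 with PA and 3431 with both (0.66). Of 22 B cell and plasma cell genes 3 were at least 2-fold higher in MRSA and none in PA. IGHM, the constant region of IgM, had 484 FPKM with MRSA, 139 with PA and 161 with both (1.8), IGJ, the joining chain of IgM and IgA, 229 FPKM with MRSA, 101 with PA and 122 with both (1.18), and BLK, a kinase of B cells and of some gamma delta T cells, 13.6 FPKM with MRSA, 3.52 with PA and 9.08 with both (1.92). CD79A, part of the B cell receptor, was less than 2-fold apart, with 14.1 FPKM with MRSA, 11.3 with PA and 9.72 with both (0.32).

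The variable segments of the antibody chains, grouped after their values were seen, differed one by one. Among 124 such features above the filter, 74 were higher in MRSA by 2-fold or more and 16 in PA, with a median of 1.49 and a range from -7.14 to 8.66. Of the 124, 10 passed the filter only through MRSA and 4 only through PA. Their summed levels were nearly equal, 7366 FPKM in MRSA and 7421 in PA, since the feature named IGHV1OR21-1 alone had 2359 FPKM in MRSA and 5671 in PA and was at 0 in MRSA + PA. These segments are near-identical copies carrying names borrowed from mouse and human proteins, so that the value of a single segment is uncertain.

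**Figure D3:**
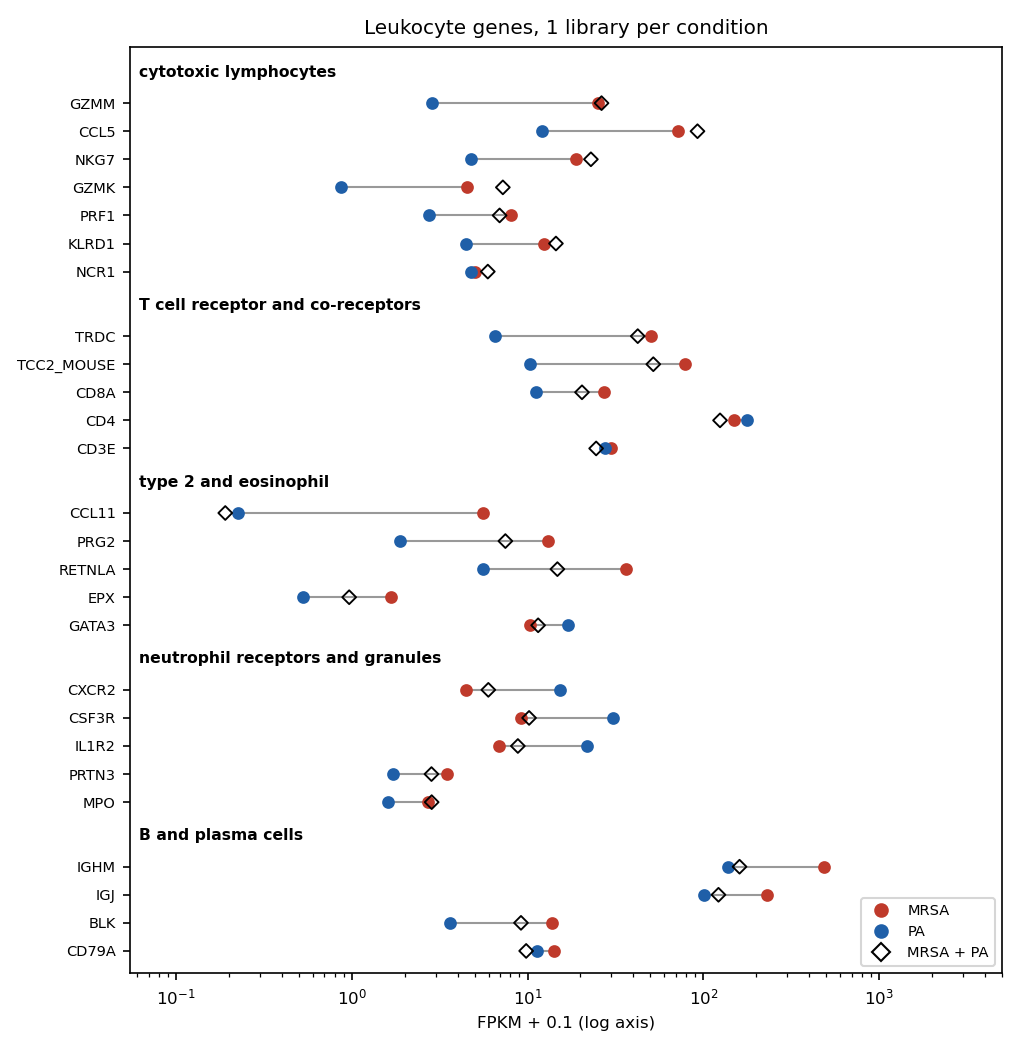
FPKM + 0.1 on a log axis for 26 leukocyte genes in MRSA (red), PA (blue) and MRSA + PA (open diamonds). For GZMM, CCL5, NKG7 and TRDC the diamond lies with MRSA, for CCL11 and IGHM with PA, and CD3E and CD4 are close together in all 3 libraries.

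The genes furthest toward MRSA were those of skeletal muscle. Of the 47 listed genes 42 passed the filter and 40 of these were at least 2-fold higher in MRSA and none in PA, and the median was 5.49. Their summed level was 5251 FPKM in MRSA, 46.1 in PA, 38.6 in MRSA + PA and 13799 in the media library, so that PA and MRSA + PA were the low libraries. Of the 20 genes furthest toward MRSA by the naming rule 13 were on this list. MRSA + PA was nearer to PA for 41 of the 42 genes. The order of MRSA and PA was not the same in the paper's real-time PCR. There ACTA1 and MYH1, a myosin heavy chain, were below media in both, and further below it in MRSA than in PA. The disagreement between FPKM and PCR was not tested.

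CKM, the muscle creatine kinase, had 409 FPKM with MRSA, 0.187 with PA and 0.0901 with both, a log2 difference of 10.48. MYH4, the myosin heavy chain of fast fibres, had 95.9 FPKM in MRSA and 0.0106 in PA (9.76) and was at 0 in MRSA + PA. ACTA1, skeletal alpha-actin, had 284 FPKM with MRSA, 0.699 with PA and 0.259 with both (8.48). MB, the oxygen store myoglobin, had 461 FPKM with MRSA, 0.888 with PA and 0.138 with both (8.87), and TNNC2, troponin C of fast fibres, 581 FPKM with MRSA, 0.682 with PA and 0.213 with both (9.54). SLN, sarcolipin, which regulates the calcium pump, had 142 FPKM in MRSA and was listed at 0 in PA and in MRSA + PA. The exceptions were CHRNB1, an acetylcholine receptor subunit, with 3.46 FPKM with MRSA, 2.35 with PA and 1.57 with both (0.54), and CASQ2, a calsequestrin shared with heart, with 1.8 FPKM with MRSA, 2.06 with PA and 1.42 with both (-0.18). DES, desmin, which smooth muscle also makes, had 31.6 FPKM with MRSA, 3.26 with PA and 5.33 with both (3.24).

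Promoters of 35 of the 40 genes at least 2-fold higher in MRSA were found by symbol. The E-box CAGCTG, which reads the same on both strands and is bound by the myogenic factors of the MyoD family, was in 14 of the 35 (40.0%), against 4134 of 27457 promoters in the table (15.1%) and 1581 of the 9650 promoters of compared genes (16.4%). The sequences of Ckm (chr1:88189211-88189510, plus strand) and Myh4 (chr10:52421898-52422197, plus strand), from RefSeq on GRCr8, are shown for the same reason as above, with the E-box in capitals.
Ckm: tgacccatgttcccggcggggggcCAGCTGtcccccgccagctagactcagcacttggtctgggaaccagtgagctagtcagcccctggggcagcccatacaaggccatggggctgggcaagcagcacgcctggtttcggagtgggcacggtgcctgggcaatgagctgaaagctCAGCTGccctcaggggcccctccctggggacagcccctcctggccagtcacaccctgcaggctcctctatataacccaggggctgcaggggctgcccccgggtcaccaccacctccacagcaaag
Myh4: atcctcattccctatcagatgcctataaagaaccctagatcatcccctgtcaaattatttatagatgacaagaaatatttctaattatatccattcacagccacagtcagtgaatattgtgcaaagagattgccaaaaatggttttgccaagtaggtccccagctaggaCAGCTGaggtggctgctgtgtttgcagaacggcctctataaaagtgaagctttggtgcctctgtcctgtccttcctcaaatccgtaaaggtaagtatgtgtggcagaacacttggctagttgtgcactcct
In Ckm the 2 E-boxes begin 226 and 75 bases before the start of the gene, and in Myh4 the E-box begins 81 bases before it. The same window held an E-box in 3 of the 20 cornified envelope promoters and an AP-1 motif in 4 of the 35 muscle promoters. The third motif, the TATA box TATAAA read on both strands, was in 6 of the 20 cornified envelope promoters (30.0%) and 11 of the 35 muscle promoters (31.4%), against 3916 of 27457 in the table (14.3%) and 673 of the 9650 of compared genes (6.97%).

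Genes of fibroblasts and fibrous matrix were level as a list, with single genes far apart. Of 31 such genes 4 were at least 2-fold higher in MRSA and 2 in PA, with a median of -0.01. TNMD, tenomodulin of tendon, had 17.7 FPKM with MRSA, 0.421 with PA and 0.465 with both (5.09), THBS4, a thrombospondin of tendon and muscle, 56.7 FPKM with MRSA, 4.91 with PA and 8.09 with both (3.5), COMP, a matrix protein of tendon and cartilage, 21.3 FPKM with MRSA, 2.14 with PA and 0.682 with both (3.26), and FMOD, fibromodulin, 96.6 FPKM with MRSA, 31.7 with PA and 15.5 with both (1.6). KERA, keratocan, which was named after its values were seen, had 93.9 FPKM with MRSA, 8.63 with PA and 0.642 with both (3.43). In the paper's real-time PCR, TNMD and KERA had the opposite order, slightly further below media in MRSA than in PA. On the other side, FN1, fibronectin, had 122 FPKM with MRSA, 369 with PA and 153 with both (-1.59), and ACTA2, smooth muscle actin, 72.4 FPKM with MRSA, 147 with PA and 109.7 with both (-1.02). The bulk collagens were nearly level, COL1A1 at 0.14 and COL3A1 at -0.17. Skeletal muscle markers stand high in the library in which TNMD, THBS4 and COMP do, and their part was not tested.

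Of 17 adipocyte genes 8 were at least 2-fold higher in MRSA and none in PA, with a median of 0.79. The furthest of these was GPD1 (4.13), whose identity is uncertain because it lies on another chromosome than in RefSeq. The paper's real-time PCR put GPD1 further below media in MRSA than in PA. ADIPOQ, adiponectin, had 6.79 FPKM with MRSA, 1.14 with PA and 0.271 with both (2.47), SCD1, which desaturates fatty acids, 13.7 FPKM with MRSA, 3.8 with PA and 1.93 with both (1.82), and RETN, resistin, 9.22 FPKM with MRSA, 2.24 with PA and 3.25 with both (2.0). PLIN1, the coat protein of lipid droplets, was low throughout, with 0.67 FPKM in MRSA and 0.0153 in PA and 0 in MRSA + PA. PPARG, the factor of fat cell differentiation, had 5.45 FPKM in MRSA and 3.32 in PA (0.70).

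Cartilage and bone genes differed one by one. Of 15 cartilage genes 5 were at least 2-fold higher in PA and 2 in MRSA. Of these 15, 2 passed the filter only through PA and 1 only through MRSA, which favours those directions. COL2A1, the main cartilage collagen, had 7.95 FPKM with MRSA, 26.5 with PA and 2.12 with both (-1.72), and COL9A1, which decorates its fibrils, 2.1 FPKM with MRSA, 27.3 with PA and 1.52 with both (-3.64), whereas ACAN, aggrecan, had 1.54 FPKM with MRSA, 0.452 with PA and 0.202 with both (1.57). Of 16 genes of bone forming cells 2 were at least 2-fold higher in MRSA, with a median of 0.48. SOST, sclerostin, made by osteocytes, had 16.3 FPKM with MRSA, 2.95 with PA and 18.4 with both (2.43), and PHOSPHO1, a phosphatase of mineralization, 19.9 FPKM with MRSA, 4.6 with PA and 7.47 with both (2.09). BGLAP, osteocalcin, had 2282 FPKM with MRSA, 1529 with PA and 2717 with both (0.58). Of 16 osteoclast genes 14 had differences above 0 (11 with equal FPKM sums), with a median of 0.54, 2 being at least 2-fold higher in MRSA and 1 in PA. OSCAR, an osteoclast receptor, was the one higher in PA, with 3.05 FPKM with MRSA, 7.85 with PA and 6.22 with both (-1.34). CTSK, cathepsin K, had 1259.8 FPKM with MRSA, 659 with PA and 2491 with both (0.94), and ATP6V0D2, a proton pump subunit, 69.4 FPKM with MRSA, 29.7 with PA and 113 with both (1.22).

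**Figure D4:**
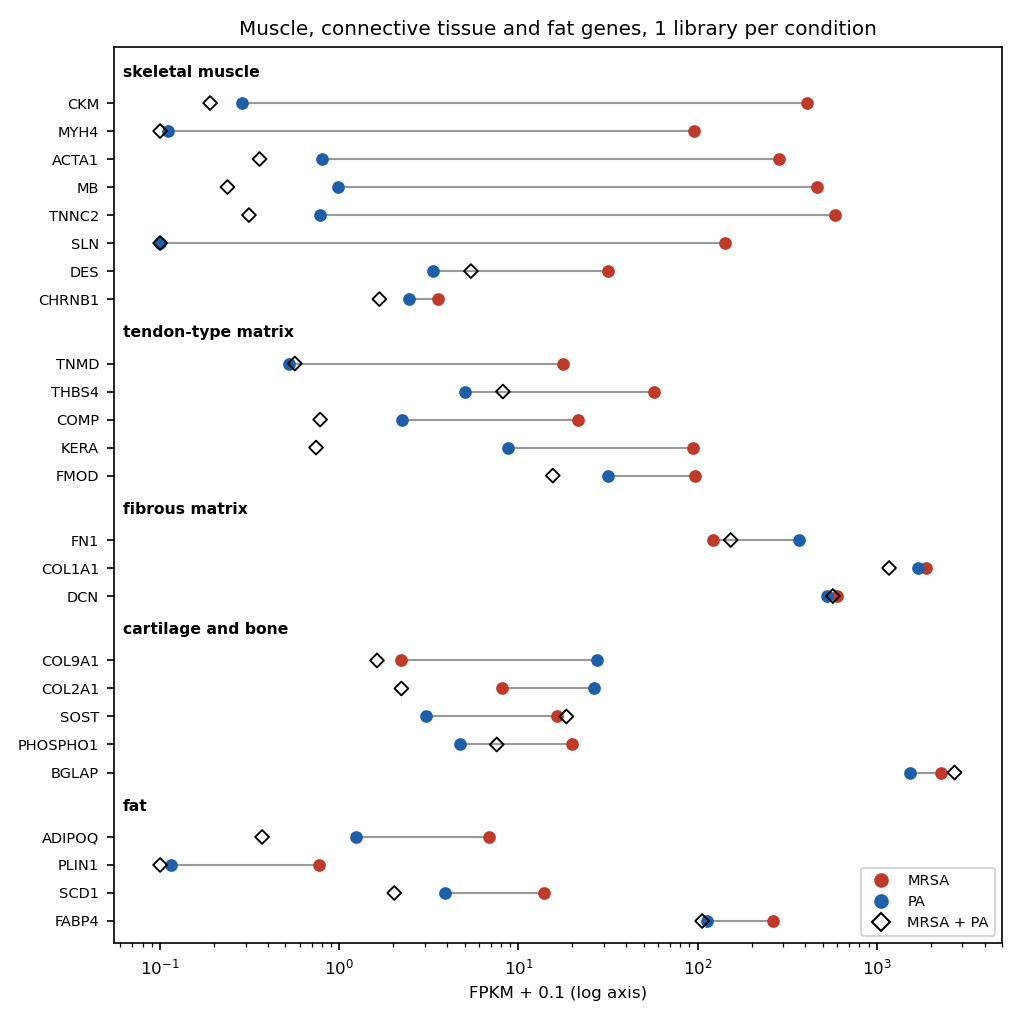
FPKM + 0.1 on a log axis for 25 muscle, connective tissue and fat genes in MRSA (red), PA (blue) and MRSA + PA (open diamonds). The muscle genes CKM, MYH4, ACTA1, MB, TNNC2 and SLN lie between 95.9 and 581 FPKM in MRSA against less than 1 FPKM in PA, and the collagen COL1A1 and DCN (decorin) hardly differ.

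Several lists held few or no genes 2-fold apart. None of 24 endothelial genes, 23 genes of hypoxia and glycolysis or 19 housekeeping genes was, and their medians were -0.10, 0.04 and 0.17. PECAM1, an endothelial adhesion protein, had 21.6 FPKM in MRSA and 27.1 in PA, and GAPDH, a glycolytic enzyme, 899 FPKM in MRSA and 743 in PA. Of 24 complement genes 1 was, CFI, the factor that inactivates C3b, with 34.3 FPKM with MRSA, 76.4 with PA and 83.6 with both (-1.15), and C3 itself had 121 FPKM with MRSA, 208 with PA and 124 with both (-0.78). Of 32 cell cycle genes 2 passed the filter only through PA, which favours differences toward PA. Of the 32, 28 had differences below 0 (31 with equal FPKM sums) with a median of -0.32, and 1 was 2-fold apart, AURKB, a mitotic kinase, with 33.8 FPKM with MRSA, 71.2 with PA and 50.2 with both (-1.07). Of 20 ribosomal protein genes 1 was, RPLP1 (1.1, but 0.99 with equal FPKM sums). Of 24 matrix proteases and inhibitors 2 were at least 2-fold higher in PA and 1 in MRSA, and 1 of the 24 passed the filter only through PA.

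**Figure D5:**
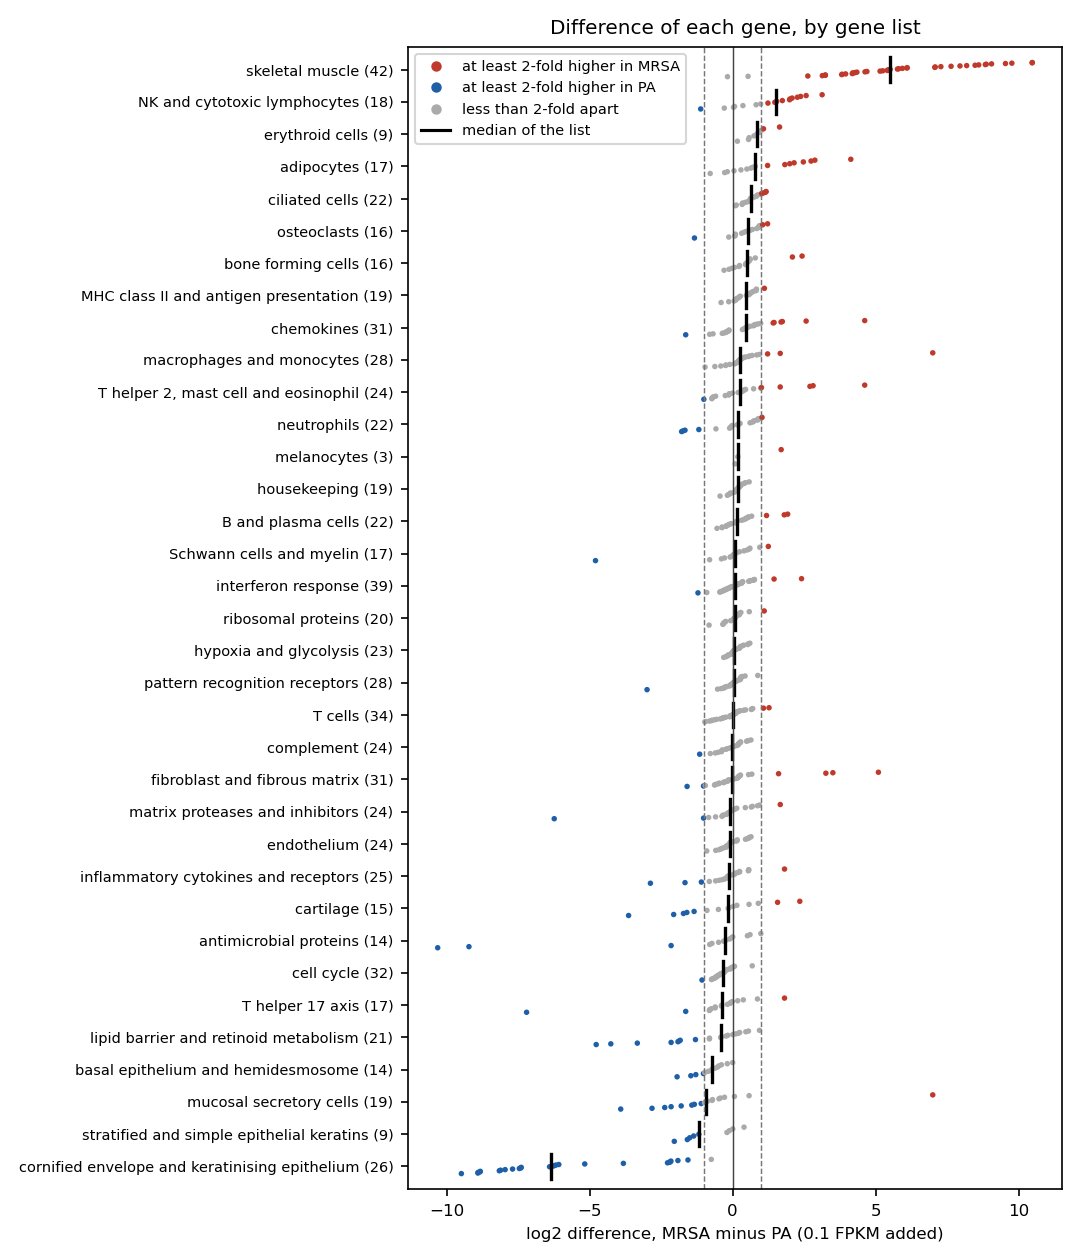
Log2 difference of each gene, MRSA minus PA with 0.1 FPKM added, for the 35 gene lists ordered by median (black bars), with the number of genes that passed the filter in parentheses and dashed lines at 2-fold. Skeletal muscle at 5.49 and the cornified envelope at -6.35 lie at the ends, and most other medians lie between -1 and 1.

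Among the features at least 2-fold apart, the MRSA + PA library lay more often with the lower of the single species. Of the 769 features at least 2-fold higher in MRSA, 525 (68.3%) were nearer to PA in MRSA + PA, and of the 526 higher in PA, 392 (74.5%) were nearer to MRSA. Together 917 of 1295 (70.8%) were nearer to the lower library. Of the 14491 features between the 2-fold lines 57.4% were nearer to MRSA. For these the share nearer to the lower library was not counted, so 70.8% is given without a background. All 20 genes furthest toward PA were nearer to MRSA in MRSA + PA, and 19 of the 20 furthest toward MRSA were nearer to PA. The NK and cytotoxic genes went the other way, since for them MRSA + PA lay with the higher library.

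Single features of gene families with near-identical copies stood out. The feature named LILRB3, a leukocyte inhibitory receptor, had 537 FPKM with MRSA, 1.03 with PA and 0.152 with both (8.89), whereas 4 other features of the same symbol ranged from -1.03 to 1.51. LYZ2, a lysozyme, had 106 FPKM with MRSA, 0.731 with PA and 0.85 with both (7.0), and LYZ1, its copy, 10972 FPKM with MRSA, 7802 with PA and 10356 with both (0.49). Of 26 features grouped as MHC class I, 5 were at least 2-fold higher in MRSA and 2 in PA. The 26 include H2-EA, which is named for a class II chain and was less than 2-fold apart (0.42). How the fragments of such copies were divided cannot be seen in FPKM, and these values are uncertain.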

How the data were processed

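RNA of scraped middle ear mucosa was sequenced by the authors as poly(A)-selected TruSeq libraries on an Illumina HiSeq2500, with 1 library per condition. Groups were taken from the sample titles and the label naming the inoculum, since the treatment label describes MRSA for every sample. Per the paper's methods, the authors filtered reads on quality, mapped them with STAR 2.3.0e and estimated levels with Cufflinks 2.1.1 using Ensembl annotation, with correction for multiply mapped reads and fragment bias and with non-coding regions masked. The deposited FPKM values are thus estimates scaled to transcript length and library size, and no whole reads can be recovered, so the counting precision of a value is unknown. The methods name the human reference, while the features lie on the chromosomes of the rat: 98.6% of the 11771 compared symbols found in RefSeq (GRCr8) lie on the same chromosome there. The genome build is not given in the sources used here. Among named genes, KRT6A, GPD1, CES2E, RPL10 and TUBA1A lie on another chromosome than in RefSeq and their identity is uncertain. The authors' comparison tables, which hold fold changes and p-values against media, were not used, and the submitters' notes also name edgeR.

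Features were kept that spanned 300 bp or more and averaged 1 FPKM or more over the 4 libraries, and the log2 ratio of MRSA to PA was taken with 0.1 FPKM added. With 1 library a side no test was made. The arithmetic was tested on simulated data. The 35 gene lists were written from textbook knowledge, and each symbol was represented by its most abundant feature. Named were the 20 genes furthest each way with a mean of at least 5 FPKM in MRSA and PA, the 4 most abundant and 4 furthest members of each list, the 10 most abundant genes of each library, and list members at least 4-fold apart with a mean of at least 2 FPKM. Some genes that these rules name are not reported here. Other list members are named to describe their list, and genes and families outside the lists were chosen after their values were seen. The comparison, the lists and the rules were chosen with earlier results of these data known. The alternatives were 1 or 0.01 FPKM added, other filters on level, length and zeros, 2 scalings, other fold limits, and counts without the muscle and cornified lists. Summing the features of 1 symbol, and leaving out antibody and T cell receptor chains, were added after seeing the data. Promoters were matched by symbol, 1 per gene, and searched on both strands. Python 3.11.15, numpy 2.4.6, pandas 2.3.3 and matplotlib 3.10.9 were used.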

Additional observations from a re-analysis of the deposited data

Results flagged for a closer look

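Features shorter than 300 bp, which the comparison leaves out, held 63.1% of all FPKM in MRSA and 59.6% in PA, against 54.0% in the media library and 49.2% in MRSA + PA. The values lie outside the main measurement. Those of MRSA and PA are above the control, and that of MRSA + PA is below it. A single feature held 46.8% of all FPKM in MRSA and 34.7% in PA. No comparison above uses these features.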

How the results depend on the processing

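The count of features at least 2-fold apart followed the filter and the fold limit. Without a minimum mean it was 3127 (1605 higher in MRSA and 1522 in PA), and with a minimum mean of 5 FPKM it was 573 (368 and 205). At 1.5-fold it was 2776 (1593 and 1183), and at 4-fold 537 (332 and 205). Fewer or more features tested and the limit itself set these counts. Under the other alternatives, including those added after seeing the data, the count stayed between 918 and 1369. The share higher in MRSA was 59.4% in the main comparison, 51.3% without a minimum mean and 51.1% with equal FPKM sums. Of the 35 list medians 34 stayed on the same side of 2-fold under every alternative. The exception was the mucosal secretory list, at -1.05 with equal sums. Small medians changed sign, as with complement without a minimum mean (0.04) and neutrophils with a minimum of 5 FPKM (-0.03). The sizes of the 2 outermost medians followed the added constant: with 1 FPKM the cornified envelope was at -3.96 and skeletal muscle at 3.85, and with 0.01 FPKM at -7.76 and 6.65. Of 293 named genes 267 stayed on the same side of 2-fold under every alternative that kept them, the strictest filter keeping 248. GAG, a retroviral gene with many copies, was the only one to reverse, to -0.084 with features of any length, where another feature represents it.

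No paired analysis was possible because each condition has 1 library. The FPKM values carry no replicate error, fragment count or interval, and no difference was set against the spread between rats.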

Other observations

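Other groups not described above also differed in single genes. Among the erythroid genes all 9 had differences above 0, with a median of 0.84, and AHSP, the chaperone of alpha haemoglobin, had 5.27 FPKM with MRSA, 1.63 with PA and 5.38 with both (1.64). The 17 Schwann cell and myelin genes had a median of 0.09, and PMP22, a protein of peripheral myelin, was nearly level at 0.14. Immediate early genes, grouped after their values were seen, lay toward MRSA in all 8 features, or in 7 with equal FPKM sums: FOS had 632 FPKM with MRSA, 293 with PA and 489 with both (1.11) and FOSB 28.1 FPKM with MRSA, 7.37 with PA and 11.3 with both (1.92), both subunits of AP-1. ITLN1, an intelectin that binds microbial sugars, had 144 FPKM with MRSA, 3.81 with PA and 45.1 with both (5.2), and CD5L, a macrophage protein, 31.8 FPKM with MRSA, 4.0 with PA and 3.38 with both (2.96). SLC26A4, the anion exchanger pendrin, was higher with PA, with 8.8 FPKM with MRSA, 32.9 with PA and 11.6 with both (-1.89), as was ITGB6, an epithelial integrin, with 8.3 FPKM with MRSA, 26.6 with PA and 12. with both (-1.67). Of 90 features named for retroviral gag and pol genes 21 were at least 2-fold higher in MRSA and 6 in PA. Of the 90, 7 passed the filter only through PA and 2 only through MRSA. ITLN1, CD5L, SLC26A4 and ITGB6 were chosen after their values were seen.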
